A study of Mus musculus with 4 samples.

Results

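Snap25 and Aldh1l1 are the genes after which the mouse lines of this study are named, and their promoters drive a tagged ribosomal protein, eGFP-RpL10a, in neurons and in astrocytes. Each gene was followed through 1 Ensembl transcript, ENSMUST00000028727 for Snap25 and ENSMUST00000130418 for Aldh1l1, so that 2 of the 23175 transcripts with a count are described. They were chosen by identity, as the driver genes, but with earlier results of these data known. Both transcripts had a count in all 4 libraries. As marker genes of the cell types, their levels in neuron and astrocyte samples are given as a description and were not tested.

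The data are ribosome footprints, the mRNA fragments that a ribosome shields from RNase, from C57BL/6J mouse brains taken at postnatal day 21. The neuron samples came from Snap25::eGFP-RpL10a mice and the astrocyte samples from Aldh1l1::eGFP-RpL10a mice, with 2 libraries per line and 2 pooled brains per library, and the libraries of a line came from separate experiments. Tagged ribosomes were captured on beads carrying antibodies to GFP, and the RNA was digested on the beads. The cells of a library are thus defined by where each promoter is active, and untagged littermates were not analysed here. Library totals were 7210269 and 12833187 counts for neuron 1 and neuron 2 and 7292950 and 7968406 counts for astrocyte 1 and astrocyte 2.

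Snap25 encodes a SNARE protein of the presynaptic membrane. It pairs with syntaxin and with a synaptobrevin on the vesicle to fuse synaptic vesicles with the plasma membrane, and it is a target of botulinum toxins. Aldh1l1 encodes a cytosolic enzyme of folate metabolism, formyltetrahydrofolate dehydrogenase, and is widely used to mark astrocytes. Capture of tagged ribosomes enriches the RNA translated in the tagged cells from whole tissue without sorting cells.

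A promoter entry was matched for 1 of the 2 genes, Aldh1l1, in the RefSeq table of build GRCm38.p6. The 250 bases before its start, at chr6:90550543-90550792 on the plus strand, are shown because the Aldh1l1 promoter is what defines the astrocyte libraries. The entry was matched by gene name. Whether these bases belong to the transgene promoter, or lie before the start of the transcript counted here, is not given in the sources used. Capitals mark matches to the CCAAT box, searched as CCAAT, and to the GC box, searched as GGGCGG, each on both strands and with no overlap between the matches of the 2 motifs.
Aldh1l1: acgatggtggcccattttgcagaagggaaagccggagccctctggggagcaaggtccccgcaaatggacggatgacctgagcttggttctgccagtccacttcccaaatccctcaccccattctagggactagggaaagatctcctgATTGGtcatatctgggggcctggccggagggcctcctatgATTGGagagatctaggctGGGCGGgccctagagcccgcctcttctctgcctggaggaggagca
The window held 2 CCAAT matches on the minus strand, at 103 to 99 and 63 to 59 bases before the start, and 1 GC box match on the plus strand at 45 to 40 bases before it. Of 32851 promoter windows of the same length, 33.8% held a CCAAT match, 10.1% held at least 2, and 32.7% held a GC box match. These are matches of letters, and nothing in the footprint counts bears on which factors bind there.

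Snap25 was covered by 20688 and 52660 footprints in neuron 1 and neuron 2, against 10399 and 10670 in astrocyte 1 and astrocyte 2. Scaled by library totals and TMM factors to CPM (counts for a common library size), these are 2787 and 3892 CPM in the neuron libraries and 1475 and 1405 CPM in the astrocyte libraries. Both neuron libraries lay above both astrocyte libraries, and the neuron libraries themselves were 1.40-fold apart. The mean was 3339 ± 781 CPM in neurons and 1440 ± 49.5 CPM in astrocytes (SD, n = 2 each), so the neuron mean was 2.32-fold higher, a fitted log2 fold change of 1.21. Of the 18819 transcripts in the comparison, 218, or 1.16%, had a higher log2 fold change, and the median of all was 0.03. The groups did not overlap, with neurons higher, in 29.9% of these transcripts, and 4.24% were called higher in neurons (edgeR quasi-likelihood test, adjusted p under 0.05). Astrocyte samples kept Snap25 footprints at 43.1% of the neuron mean. In these bulk samples fewer tagged cells of a type and less bound RNA per cell cannot be told apart. Whether the Snap25 footprints of the astrocyte samples came from tagged cells was not tested.

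Aldh1l1 was covered by 350 and 608 footprints in neuron 1 and neuron 2, against 1279 and 1463 in astrocyte 1 and astrocyte 2. Its level was 47.1 and 44.9 CPM in the neuron libraries and 181 and 193 CPM in the astrocyte libraries. Both neuron libraries lay below both astrocyte libraries, and within each cell type the libraries were close. The mean was 46.0 ± 1.56 CPM in neurons and 187 ± 7.95 CPM in astrocytes (SD, n = 2 each), a fitted log2 fold change of -2.02, and the neuron mean was 24.6% of the astrocyte mean. Of the 18819 transcripts, 535, or 2.84%, had a lower log2 fold change. The groups did not overlap, with neurons lower, in 30.7% of the transcripts, and 12.9% were called lower in neurons (edgeR quasi-likelihood test, adjusted p under 0.05).

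The neuron libraries differed more in Snap25 than in Aldh1l1. From neuron 1 to neuron 2 the Snap25 level was 1.40-fold and the Aldh1l1 level 0.953-fold. Without neuron 2 the log2 fold change of Snap25 was 0.96, and without neuron 1 it was 1.43.

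The count ratio of Snap25 to Aldh1l1 within a library needs no scaling between libraries. It depends on the lengths of both transcripts, which are not given, so only its change between libraries can be read. The ratio was 59.1 in neuron 1 (exact 95% Clopper-Pearson interval 53.2 to 65.9) and 86.6 in neuron 2 (80.0 to 94.0), against 8.13 in astrocyte 1 (7.67 to 8.62) and 7.29 in astrocyte 2 (6.90 to 7.71). The lowest neuron ratio was 7.27-fold above the highest astrocyte ratio, and on the log2 scale the ratio averaged 6.16 ± 0.39 in neurons and 2.94 ± 0.11 in astrocytes (SD, n = 2 each), a difference of 3.22. The intervals cover counting error only. Because the intervals of neuron 1 and neuron 2 do not meet, the neuron libraries differed by more than counting error.

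**Figure D1:**
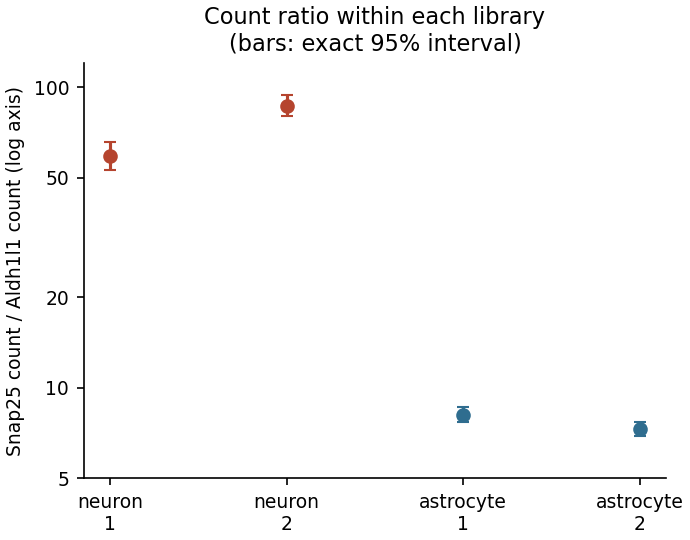
Count of Snap25 divided by count of Aldh1l1 in each library, on a log axis, with exact 95% intervals for counting error. The neuron libraries sit at 59.1 and 86.6 and the astrocyte libraries at 8.13 and 7.29.

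The deposited counts divide each transcript into regions a, b, c and d. What the letters stand for is not given in the sources used here, so the regions are called by their letters. Region b held most footprints of both genes, and it carried the difference between the cell types in both. Region b of Snap25 held 18560 and 48417 counts in neuron 1 and neuron 2 and 9507 and 9660 in astrocyte 1 and astrocyte 2. Its level was 3039 ± 762 CPM in neurons and 1310 ± 54.0 CPM in astrocytes (SD, n = 2 each). Region b of Aldh1l1 held 330 and 580 counts in neuron 1 and neuron 2 and 1128 and 1208 in astrocyte 1 and astrocyte 2. Its level was 43.7 ± 1.12 CPM in neurons and 159.6 ± 0.652 CPM in astrocytes (SD, n = 2 each), so that it was 3.65-fold higher in astrocytes than in neurons.

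Region a of Snap25 held 2078 and 4154 counts in neuron 1 and neuron 2, against 865 and 959 in astrocyte 1 and astrocyte 2. In CPM these are 280 and 307 in the neuron libraries and 123 and 126 in the astrocyte libraries. Between the group means region a moved with region b, being 2.36-fold higher in neurons where region b was 2.32-fold higher. Between the neuron libraries it did so less. From neuron 1 to neuron 2 region b was 1.43-fold and region a 1.10-fold.

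Region a of Aldh1l1 held 19 and 28 counts in neuron 1 and neuron 2, against 148 and 254 in astrocyte 1 and astrocyte 2. In CPM these are 2.56 and 2.07 in the neuron libraries and 20.995 and 33.452 in the astrocyte libraries. The mean was 2.31 ± 0.346 CPM in neurons and 27.2 ± 8.81 CPM in astrocytes (SD, n = 2 each), 11.8-fold higher in astrocytes. Both neuron libraries lay below both astrocyte libraries, and the distance was wider than in region b. The astrocyte libraries, whose region b levels were nearly the same (0.994-fold, astrocyte 2 over astrocyte 1), differed 1.59-fold in region a.

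**Figure D2:**
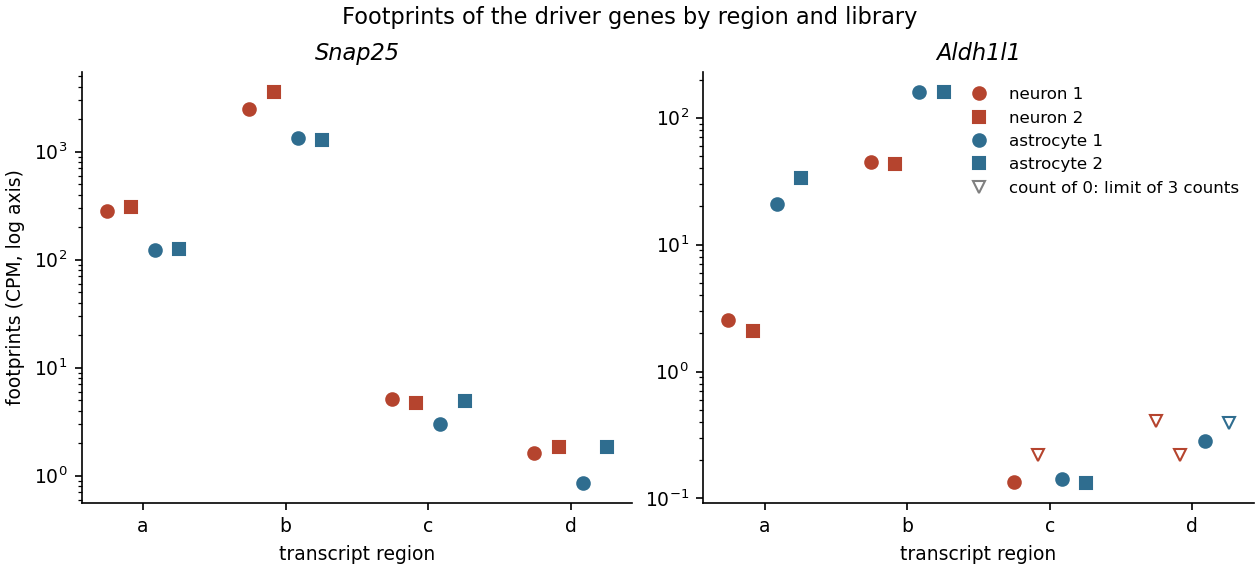
Footprints of Snap25 (left) and Aldh1l1 (right) in regions a to d, in CPM on a log axis, with neuron libraries in red and astrocyte libraries in blue (circles, library 1; squares, library 2). An open triangle marks a count of 0 at the limit of 3 counts that it allows; region a of Aldh1l1 is at 2.56 and 2.07 CPM in the neuron libraries, far under the 20.995 and 33.452 CPM of the astrocyte libraries.

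Whether region a takes another share of the footprints in one line is a question of its own, since RNA from the leader of the transgene, if it is counted in region a, would add to the driver gene in its own line. The counts of region a were therefore set against those of region b. For Snap25 region a stood at 11.2% of region b in neuron 1 (95% Wilson interval 10.7% to 11.7%) and 8.58% in neuron 2 (8.31% to 8.86%), against 9.10% in astrocyte 1 (8.49% to 9.75%) and 9.93% in astrocyte 2 (9.29% to 10.6%). The groups overlapped, with neuron 1 highest and neuron 2 lowest. The mean was 9.89% ± 1.85 in neurons and 9.51% ± 0.586 in astrocytes (SD, n = 2 each). In a model over the counts of both regions, fitted to 8778 transcripts, the log2 change of the ratio was 0.04 (SE 0.187, edgeR quasi-likelihood test, adjusted p = 0.962), and it lay between -0.15 and 0.24 when 1 library was left out. A change of the Snap25 ratio was not detectable beyond the spread between the neuron libraries.

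For Aldh1l1 region a stood at 5.76% of region b in neuron 1 (95% Wilson interval 3.64% to 9.11%) and 4.83% in neuron 2 (3.31% to 7.04%), against 13.1% in astrocyte 1 (11.1% to 15.6%) and 21.03% in astrocyte 2 (18.4% to 24.1%). No neuron interval reached an astrocyte interval, but these Wilson intervals cover counting error only, not the spread between pools. The mean was 5.29% ± 0.658 in neurons and 17.1% ± 5.59 in astrocytes (SD, n = 2 each). The ratio was lower in neurons, with a log2 change of -1.68 (SE 0.319), that is 3.21-fold lower than in astrocytes (edgeR quasi-likelihood test, adjusted p = 0.00137 over 8778 transcripts).

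The ratio changed in 1.08% of the 8778 transcripts tested, 95 in all, of which 89, or 1.01% of those tested, were lower in neurons. The median log2 change of all was -0.21, so most transcripts leaned the same way, and Aldh1l1 ranked 67 from the lowest. The groups did not overlap, with neurons lower, in 34.2% of these transcripts. Over all transcripts of a library region a stood at 7.57% and 7.29% of region b in neuron 1 and neuron 2 and at 8.49% and 9.01% in astrocyte 1 and astrocyte 2. Measured against this, region a of Aldh1l1 stood at 0.761 and 0.663 of the library value in neuron 1 and neuron 2, and at 1.55 and 2.33 times the library value in astrocyte 1 and astrocyte 2. Snap25 stood at 1.48 and 1.18 times in neuron 1 and neuron 2, and at 1.07 and 1.10 times in astrocyte 1 and astrocyte 2.

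**Figure D3:**
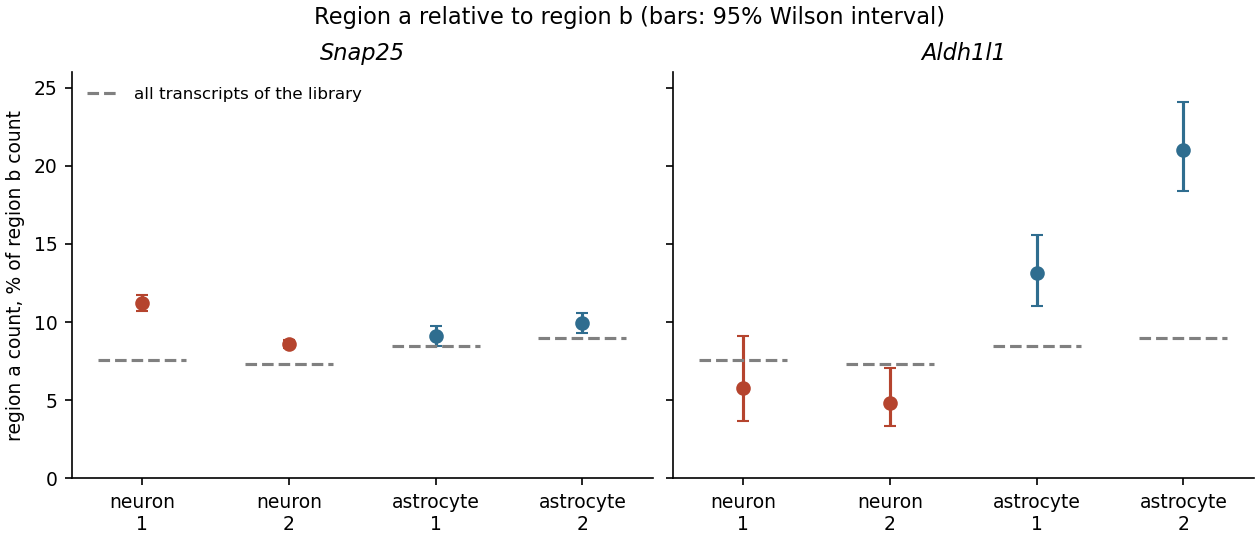
Region a count as a percentage of the region b count for Snap25 (left) and Aldh1l1 (right) in each library, with 95% Wilson intervals; the dashed line is the same percentage over all transcripts of that library. Snap25 overlaps between neuron (red) and astrocyte (blue) libraries, while Aldh1l1 lies below the line at 5.76% and 4.83% in neuron libraries and above it at 13.1% and 21.03% in astrocyte libraries.

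Aldh1l1 was not called without astrocyte 1 or without astrocyte 2, and nearly all other calls were lost in these fits too. Its log2 change was -2.005 without astrocyte 1 and -1.32 without astrocyte 2. Scaling each region to its own total removes the lean common to all transcripts. With this scaling the log2 change of Aldh1l1 was -1.45 (edgeR quasi-likelihood test, adjusted p = 0.0554). At the pooled ratio of the neuron libraries, 5.16%, region a would have held 58.3 counts in astrocyte 1 and 62.4 in astrocyte 2. The observed counts of 148 and 254 are 2.54 and 4.07 times as many, without removal of the lean common to all transcripts. Whether transgene RNA has a part in this was not tested.

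**Figure D4:**
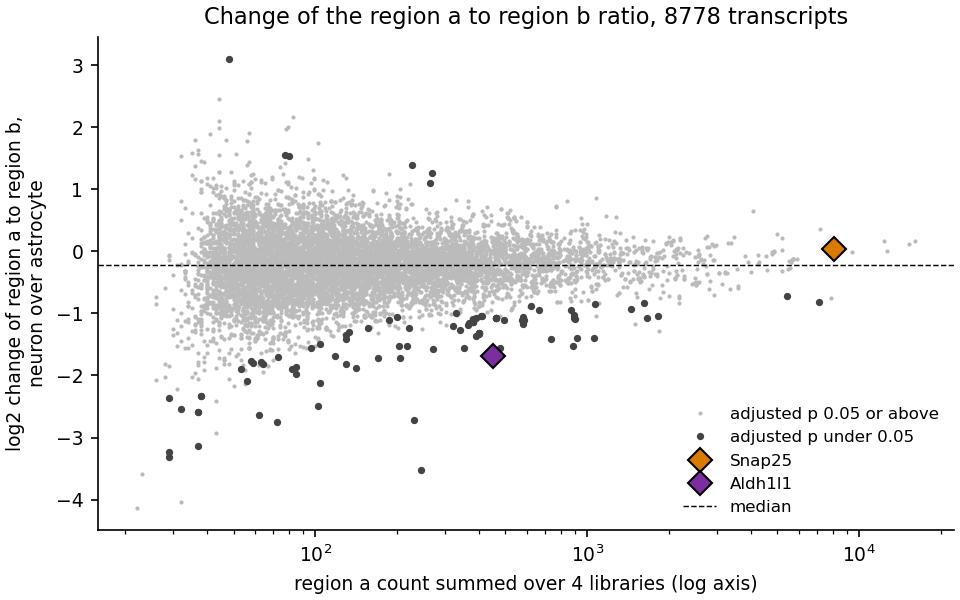
Log2 change of the region a to region b ratio, neuron over astrocyte, against the region a count summed over the 4 libraries (log axis) for 8778 transcripts; black points passed an adjusted p of 0.05 and the dashed line is the median of -0.21. Aldh1l1 (purple) lies among the lower called points at -1.68, and Snap25 (orange) lies near 0 at 0.04.

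A second transcript, ENSMUST00000032175, had the same region b counts as Aldh1l1 in all 4 libraries, and no other transcript shared those of Snap25. It was singled out after its values were seen, and the files give it no gene name. Its region a counts were lower, at 17 and 23 in neuron 1 and neuron 2, against 126 and 185 in astrocyte 1 and astrocyte 2. Region a thus stood at 4.56% ± 0.839 of region b in neurons and 13.2% ± 2.93 in astrocytes (SD, n = 2 each). The ratio was lower in neurons, with a log2 change of -1.56 (SE 0.328, edgeR quasi-likelihood test, adjusted p = 0.00442). It passed in neither fit that left out an astrocyte library, with adjusted p = 0.141 without astrocyte 1 and 0.609 without astrocyte 2, nor without neuron 2, at 0.101, nor with each region scaled to its own total, at 0.0841, nor with DESeq2, at 0.075. The shared counts make this no separate evidence. ENSMUST00000130418 held 2 and 5 more region a counts than this transcript in neuron 1 and neuron 2, and 22 and 69 more in astrocyte 1 and astrocyte 2. These differences were equal to 10.5% and 17.9% of its region a counts in the neuron libraries and 14.9% and 27.2% in the astrocyte libraries. Whether both transcripts were given the same region a fragments cannot be read from the counts. Astrocyte 2 held 106 more region a counts than astrocyte 1 for ENSMUST00000130418 and 59 more for ENSMUST00000032175.

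Regions c and d were thinly covered. Region c of Snap25 held 38 and 64 counts in neuron 1 and neuron 2 and 21 and 37 in astrocyte 1 and astrocyte 2, that is 0.205% and 0.132% of region b in the neuron libraries and 0.221% and 0.383% in the astrocyte libraries. The groups did not overlap, with neurons lower, which was also true of 21.4% of the 290 transcripts testable for region c. The log2 change of -0.90 (SE 0.456) did not pass the test (edgeR quasi-likelihood test, adjusted p = 0.428). The 95% Wilson intervals of neuron 1 and astrocyte 1, 0.149% to 0.281% and 0.144% to 0.338%, overlap widely. Those of neuron 2 and astrocyte 2, 0.104% to 0.169% and 0.278% to 0.528%, do not meet. The intervals cover counting error only. Region d of Snap25 held 12 and 25 counts in neuron 1 and neuron 2 and 6 and 14 in astrocyte 1 and astrocyte 2, and the groups overlapped in their ratio to region b. Its log2 change was -0.90 (SE 0.596, edgeR adjusted p = 0.563). Of the 544 transcripts testable for region d, 0.184% changed, and 26.1% had groups that did not overlap, with neurons lower.

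Aldh1l1 had almost no counts in these regions. Region c held 1 and 0 counts in neuron 1 and neuron 2 and 1 and 1 in astrocyte 1 and astrocyte 2. Region d held 0 and 0 counts in neuron 1 and neuron 2 and 2 and 0 in astrocyte 1 and astrocyte 2. A count of 0 in region d allows up to 0.857% of the transcript's footprints in neuron 1, 0.493% in neuron 2 and 0.205% in astrocyte 2. At this depth neither region could be tested for a difference.

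The transcripts whose pattern over the 4 libraries was most like that of each gene were sought among those with 0.5 to 2 times its mean CPM, by the distance between centred log2 CPM values. ENSMUST00000032175, with the same region b counts as Aldh1l1, was left out. Of the remaining 3431 candidates the nearest to Aldh1l1 was ENSMUST00000040647, at a distance of 0.112 where the median was 2.17. It measured 38.8 and 36.9 CPM in neuron 1 and neuron 2 and 139 and 146 CPM in astrocyte 1 and astrocyte 2. The next of these candidates, ENSMUST00000028806, lay at 0.165, with 26.8 and 21.9 CPM in the neuron libraries and 91.8 and 99.8 CPM in the astrocyte libraries. Snap25 had no such close match among its 42 candidates. The nearest, ENSMUST00000027863, lay at 0.875 against a median of 1.88, with 2420 and 2002 CPM in neuron 1 and neuron 2 and 1556 and 1552 CPM in astrocyte 1 and astrocyte 2. Next came ENSMUST00000073139 at 0.914, with 1489 and 1457 CPM in the neuron libraries and 1160 and 1142 CPM in the astrocyte libraries. Neither of these 2 transcripts was higher in neuron 2 than in neuron 1, as Snap25 was.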

How the data were processed

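The values are raw counts of footprints per transcript region, as deposited by the authors, 1 file per library. A region without a line was read as 0. The aligners STAR 2.3.1z8 and Bowtie2 2.2.2, with Trimmomatic 0.32, FastQC 0.11.2, edgeR and bedtools, are named, per the submitters' processing notes, without role or order. Build, annotation, strand use and the handling of fragments that several transcripts share are not given in these sources, so shared or overlapping fragments may enter a count.

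Counts were summed over regions for levels, filtered with filterByExpr (minimum count 10), scaled by TMM and fitted with edgeR 4.0.16 in R 4.3.3, with cell type as the only term. Ratios to region b were tested with the edgeR quasi-likelihood test over both regions. The terms were library, region and the interaction of region with cell type. Adjustment was by Benjamini-Hochberg over all transcripts tested. Regions c and d were added after their counts were seen. In fits without 1 library the lone library is assumed to vary as the other pair does. Alternatives were DESeq2 1.42.0, other scalings, no filter, region b alone, the replicate block and each library left out. P-values measure the spread between pools, which edgeR estimates for each transcript with information shared across all transcripts tested. They do not rest on the pools of a single gene alone.

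The genes and gene lists were chosen with earlier results of these data known. Named are the 2 genes and, for each, the 2 transcripts of most similar pattern, leaving out transcripts with the same region b counts in all libraries. ENSMUST00000032175, which has those of Aldh1l1, was named after its values were seen. Wilson intervals were taken on region a as a share of regions a and b together and restated relative to region b. No table at hand pairs transcripts with gene names, so the lists of vesicle fusion, folate and cell type marker genes were not analysed here. Replicate numbers occur in both groups, and the main fits did not use them to pair the samples. The correlation of deviations was r = -0.081 across 18819 transcripts. This shows no shift shared by replicate number but cannot exclude a pairing.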

Additional observations from a re-analysis of the deposited data

How the results depend on the processing

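Snap25 stayed higher and Aldh1l1 lower in neuron samples under every alternative run, namely other scalings, region b alone, no filter, the replicate block and each library left out. The log2 fold change of Aldh1l1, -2.02, was -1.90 with library totals alone and -1.89 with region b alone, and that of Snap25, 1.21, ranged from 0.96 to 1.43 with 1 library left out. The difference of the log2 ratio of Snap25 to Aldh1l1 lay between 2.94 and 3.49 with 1 library left out. The 3219 transcripts changed in level became 1523 to 8958 with 1 library left out. For ratios of region a against region b, the 95 changed transcripts became 12 with each region scaled to its own total, 10 with DESeq2 and 1 to 207 with 1 library left out. The change of Aldh1l1 was -1.45 with each region's own total (adjusted p = 0.0554) and ranged from -2.005 to -1.32 with 1 library left out. It passed with DESeq2 (adjusted p = 0.0495) and in the edgeR test with no filter (adjusted p = 0.00058). It also passed without neuron 1 or neuron 2, but not without astrocyte 1 or astrocyte 2. That of Snap25, which did not pass in any fit, ranged from -0.15 to 0.24 with 1 library left out. Apart from the centring on each region's own total, which removes the shared shift by construction, the cause was not tested.

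The replicate block gave 3416 changed levels and 84 changed ratios, with -1.70 for the Aldh1l1 ratio (adjusted p = 0.000734), and changed no call on the 2 genes. Depth limits region a of Aldh1l1 in neurons, with 19 and 28 counts, and regions c and d of both genes.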
